A study of Mus musculus with 2 samples.

Results

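ATP synthase (complex V) is the enzyme of the inner mitochondrial membrane that makes ATP while protons flow back into the matrix. Protons turn a ring of c subunits in the membrane, the ring turns a central stalk of gamma, delta and epsilon subunits, and the stalk drives ATP formation in a head of alternating alpha and beta subunits. A peripheral stalk, which includes OSCP and the d subunit, keeps the head from turning with the ring. Heart muscle draws nearly all of its ATP from this enzyme, and most of its subunits are encoded in the nucleus. The genes described here are 10 nuclear subunit genes (Atp5a1, Atp5b, Atp5c1, Atp5d, Atp5e, Atp5g1, Atp5g2, Atp5g3, Atp5h and Atp5o) of 55536 annotated genes in all. They were matched by exact symbol to the transcript tables and joined to the gene tables by gene identifier, and this matching used no measured value. The set itself was chosen with earlier results of these data known. The symbol Atp5o belonged to 2 gene identifiers, so the 10 symbols matched 11 identifiers. The second of these, ENSMUSG00000116933.1, had 0.23 TPM in replicate 2 and 0 TPM in replicate 1, and every Atp5o value below is that of ENSMUSG00000022956.11. TPM is a length-scaled abundance, set to the same sum in every library, that can be compared between genes of a library.

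The RNA came from the heart of male B6CASTF1/J mice (the first-generation cross of C57BL/6J and CAST/EiJ) aged 18 to 20 months, untreated as far as the labels say. Total RNA, 300 ng per library, was sequenced after stranded, ribosomal RNA-depleted preparation with added ERCC spike-in RNAs. There were 2 libraries, biological replicate 2 and biological replicate 1, which form 1 group, so the only comparison was between the replicates. The labels give them different sample identifiers but 1 donor identifier, so differences between them may be technical in part. The expected counts of annotated genes summed to 37281446 in replicate 2 and 38858465 in replicate 1, of which genes of the mitochondrial chromosome took 34.4% in replicate 2 and 29.3% in replicate 1. The libraries had the character of heart muscle. All 8 cardiomyocyte markers were present, at a summed 33696 TPM in replicate 2 and 40163 TPM in replicate 1. Of the 7 skeletal muscle markers only Acta1, which heart also expresses, reached 1 TPM. In RNA of a whole tissue, fewer cells of a type and less RNA per cell cannot be told apart.

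The c subunit is the one ATP synthase subunit here that several genes encode. Atp5g1, Atp5g2 and Atp5g3 make precursors with different mitochondrial import sequences, which are removed to leave the same ring protein. In the annotated transcripts the precursors had 136 codons (Atp5g1), 146 codons (Atp5g2) and 141 codons (Atp5g3), and the last 78 codons encoded the same residues in all 3 genes. The nucleotides of this shared end are given 5′ to 3′ as spliced coding sequence of the minus strand of mm10, because they decide whether reads of the 3 genes can be told apart. Capitals mark the 63 of 234 positions at which the 3 genes do not all have the same base.
Atp5g1 (chr11:96073107-96073644): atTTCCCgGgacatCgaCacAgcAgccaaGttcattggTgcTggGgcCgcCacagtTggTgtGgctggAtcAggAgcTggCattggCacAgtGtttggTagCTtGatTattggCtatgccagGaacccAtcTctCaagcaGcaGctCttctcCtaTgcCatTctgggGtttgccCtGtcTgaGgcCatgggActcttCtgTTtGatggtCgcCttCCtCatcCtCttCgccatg
Atp5g2 (chr15:102663017-102665175): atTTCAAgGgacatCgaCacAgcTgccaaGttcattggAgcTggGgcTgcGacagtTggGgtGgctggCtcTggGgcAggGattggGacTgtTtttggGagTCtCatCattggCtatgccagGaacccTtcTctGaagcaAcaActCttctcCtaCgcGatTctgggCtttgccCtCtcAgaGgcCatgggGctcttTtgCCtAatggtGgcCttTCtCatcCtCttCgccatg
Atp5g3 (chr2:73908596-73909305): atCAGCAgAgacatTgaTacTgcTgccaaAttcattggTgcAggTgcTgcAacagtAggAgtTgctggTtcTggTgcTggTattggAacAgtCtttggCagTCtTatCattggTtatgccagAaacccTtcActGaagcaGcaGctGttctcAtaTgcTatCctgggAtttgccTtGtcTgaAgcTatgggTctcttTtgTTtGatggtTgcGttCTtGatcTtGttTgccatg
Although the encoded residues were the same, the nucleotides were not. Atp5g1 and Atp5g2 differed at 36 of the 234 bases, Atp5g1 and Atp5g3 at 50, and Atp5g2 and Atp5g3 at 53. The longest run shared by any pair of the whole transcripts was 21 bases (Atp5g1-202 with Atp5g2-202), so no 100-base stretch was common to a pair of these genes.

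Other genes did share such stretches. Gm10175 (chr7:23946646-23947290, minus strand) is annotated as a transcribed processed pseudogene, and Gm10231 (chr17:5816200-5816640, minus strand) as a processed pseudogene. Processed pseudogenes are intronless copies made from an mRNA. The 441 bases of Gm10231 and the 645 bases of Gm10175-201 both held the 438 coding bases of Atp5g2 with 0 differences. Of the 632 stretches of 100 bases in Atp5g2-202, 546 also occurred in Gm10175-201, or 86.4%, and the 86 others lay at its ends. Gm10039 (chr11:100361716-100362126, minus strand) differed from the 408 coding bases of Atp5g1 at 1 base and shared 57.3% of the stretches of Atp5g1-202. Gm10250 (chr15:5120654-5121135, minus strand), chosen here after its values were seen, shared 32.7% of the stretches of Atp5h-201. Atp5o-201 shared 19.5% of its stretches with the other gene of that symbol. For the leading transcripts of the other 6 genes (Atp5a1, Atp5b, Atp5c1, Atp5d, Atp5e and Atp5g3), no other gene held 5% or more of the 100-base stretches. Values of Atp5g2, and to a lesser degree of Atp5g1 and Atp5h, therefore depend on how the quantification divided reads among copies.

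The catalytic head was the most abundant part of the set. Atp5b (chr10:128083273-128090391, plus strand), the beta subunit that holds the catalytic sites, had 2820 TPM in replicate 2 and 3703 TPM in replicate 1. Its mean of 3262 ± 624 TPM (SD, n = 2) placed it 11th by mean TPM among nuclear protein-coding genes. Atp5a1 (chr18:77773729-77782869, plus strand), the alpha subunit, which alternates with beta in the head, had 1435 TPM in replicate 2 and 1762 TPM in replicate 1. The beta mRNA exceeded the alpha mRNA in both libraries, and their ranges over the libraries did not overlap.

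In the central stalk, Atp5e (chr2:174461072-174464105, minus strand), the epsilon subunit, had 559 TPM in replicate 2 and 750.4 TPM in replicate 1. Atp5c1 (chr2:10056016-10080510, minus strand), the gamma subunit that turns inside the head, had 546 TPM in replicate 2 and 588 TPM in replicate 1. Atp5d (chr10:80138632-80145818, plus strand), the delta subunit at the foot of gamma, had 356 TPM in replicate 2 and 447 TPM in replicate 1. Epsilon and gamma overlapped in range over the libraries, and delta lay below both in each library. In the peripheral stalk, Atp5h (chr11:115415689-115419962, minus strand), the d subunit, had 764 TPM in replicate 2 and 1004 TPM in replicate 1. Atp5o (chr16:91925214-91931687, minus strand), the OSCP subunit that ties the stalk to the top of the head, had 756 TPM in replicate 2 and 927 TPM in replicate 1. These stalk genes also overlapped each other in range.

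Among the c-subunit genes, Atp5g3 (chr2:73908447-73911326, minus strand) had 1245 TPM in replicate 2 and 1583 TPM in replicate 1. Atp5g1 (chr11:96068852-96075670, minus strand) had 1197 TPM in replicate 2 and 1502 TPM in replicate 1. Atp5g2 (chr15:102662864-102672352, minus strand) had 14.0 TPM in replicate 2 and 20.4 TPM in replicate 1. Atp5g3 and Atp5g1 were of like level, and Atp5g2 was listed far below them in the gene table of both libraries. The deposited bounds around the Atp5g2 value were 9.17 and 21.5 TPM in replicate 2 and 13.8 and 29.7 TPM in replicate 1. Such bounds did not always enclose the listed TPM. Atp5g1 and Atp5g3 lay above both of their bounds in both libraries (upper bounds in replicate 2 of 1189 and 1234 TPM).

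**Figure D1:**
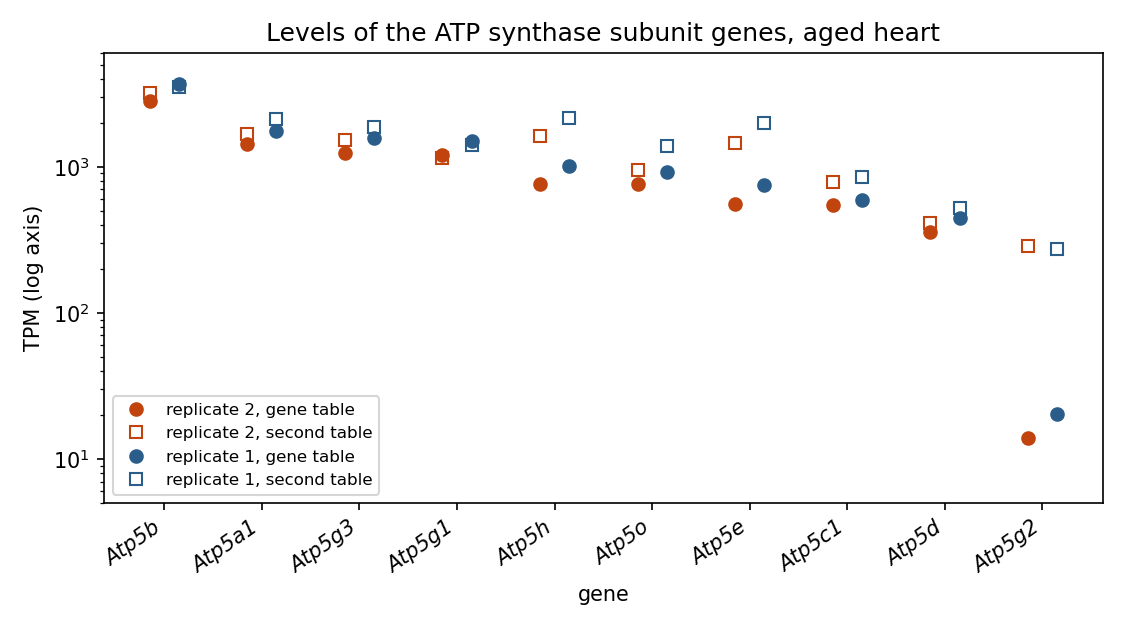
TPM (log axis) of the 10 ATP synthase subunit genes, ordered by mean TPM of the gene table, with replicate 2 left of replicate 1. Filled circles are the gene table and open squares the second transcript table summed per gene. Atp5b is highest in both, and Atp5g2 is at 14.0 TPM (replicate 2) and 20.4 TPM (replicate 1) in the gene table but at 287 TPM (replicate 2) and 275 TPM (replicate 1) in the second table.

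By mean TPM the order was Atp5b, Atp5a1, Atp5g3, Atp5g1, Atp5h, Atp5o, Atp5e, Atp5c1, Atp5d and Atp5g2, and each of the 9 neighbouring pairs kept this order in both libraries. The ranges over the libraries were apart for 5 pairs (Atp5b over Atp5a1, Atp5g1 over Atp5h, Atp5o over Atp5e, Atp5c1 over Atp5d and Atp5d over Atp5g2). They overlapped for the other 4 pairs, which still kept their order within each library, in the second table too. Whether the genes of these 4 pairs differ in level was not tested. Without Atp5g2 the means lay within 8.13-fold of each other, whereas Atp5d was 23.3-fold above Atp5g2. That gap was 1.66-fold in the second table, and 1.63-fold in the gene table with the copies Gm10175 and Gm10231 counted as Atp5g2. In the second table the order turned for Atp5g1 against Atp5h and for Atp5o against Atp5e, in both libraries.

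Subunits occur in unequal numbers in the complex, so the levels were also divided by the copies of each subunit, taken as 3 for alpha and beta, 8 for the c ring of vertebrates and 1 for the others. On this scale beta stood at 940.0 TPM per copy in replicate 2 and 1234 in replicate 1. The c subunit, summed over its 3 genes, stood at 307 TPM per copy in replicate 2 and 388 in replicate 1. Between these lay d (mean 884 TPM per copy), OSCP (841), epsilon (655), gamma (567), alpha (533) and delta (401). The highest subunit exceeded the lowest by 3.06-fold in replicate 2 and 3.18-fold in replicate 1. With all transcripts of a gene counted, beta was thus the most abundant subunit mRNA also per copy in the gene table. The c subunit was the least abundant despite its 3 genes. In the first transcript table, protein-coding transcripts held 73.0% of Atp5b in replicate 2 and 68.7% in replicate 1. For Atp5h they held 86.0% in replicate 2 and 93.9% in replicate 1. In the second table c remained the lowest in both libraries, but d took the place of beta as the highest. The span there was 4.34-fold in replicate 2 and 4.88-fold in replicate 1. Protein-coding transcripts held 43.7% of Atp5h in replicate 2 and 37.8% in replicate 1 of the second table. For Atp5b they held 70.8% in replicate 2 and 78.9% in replicate 1. By protein-coding transcripts alone the order at the top changed. In the first table d then lay above beta in replicate 1 and below it in replicate 2. Atp5b-201, the only protein-coding Atp5b transcript, had 2059 TPM in replicate 2 and 2543 TPM in replicate 1, for 3 copies. Atp5h-201 had 584 TPM in replicate 2 and 830 TPM in replicate 1, for 1 copy, and other Atp5h transcripts were also protein-coding. In the second table epsilon was then the highest, with Atp5e-201 at 1285 TPM in replicate 2 and 1762 TPM in replicate 1.

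**Figure D2:**
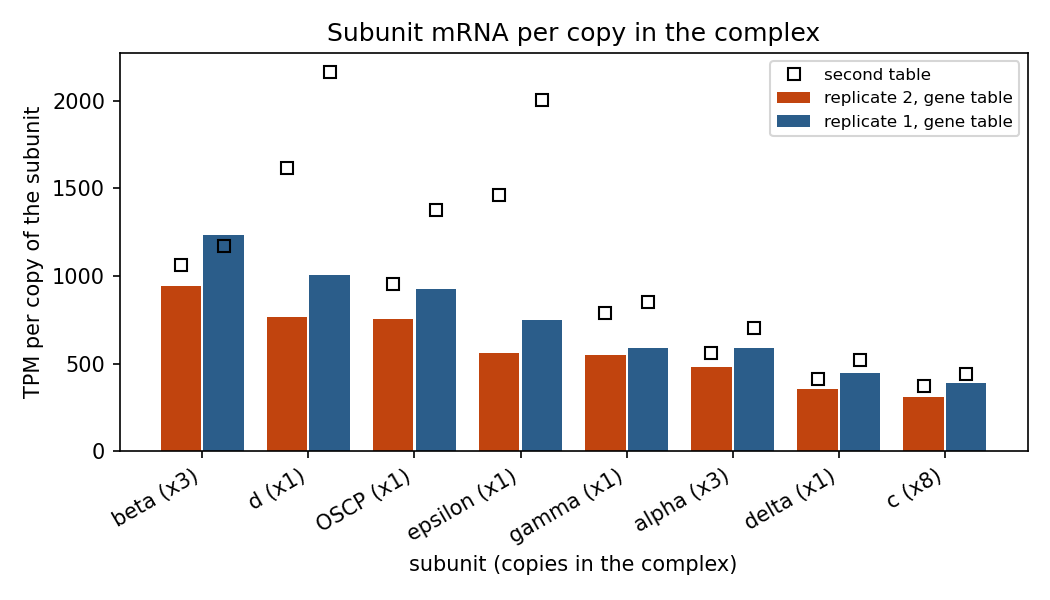
TPM divided by the copies of each subunit in the complex (number in brackets) for 8 subunits, ordered by the mean of the gene table. Bars are the gene table, replicate 2 left of replicate 1, and open squares are the second table; beta is the highest bar and c the lowest in both libraries, while the squares of d and epsilon lie well above their bars.

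Nearly all c-subunit mRNA came from Atp5g3 and Atp5g1 in the gene table. Atp5g3 held 50.7% of the summed c-subunit TPM in replicate 2 and 51.0% in replicate 1, and Atp5g1 held 48.7% in replicate 2 and 48.4% in replicate 1. Atp5g2 held 0.571% in replicate 2 and 0.657% in replicate 1. As a share of expected counts Atp5g2 had 0.637% in replicate 2 (95% Clopper-Pearson interval 0.563% to 0.717%) and 0.733% in replicate 1 (0.663% to 0.808%). These intervals cover counting error only.

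The Atp5g2 share was another in the second table, at 9.66% in replicate 2 and 7.74% in replicate 1. The gene table assigned 3957 expected counts (236 TPM) to Gm10175 in replicate 2 and 3723 (221 TPM) in replicate 1, against 271 (replicate 2) and 397 (replicate 1) for Atp5g2 itself. In the second table Gm10175 had 0.030 TPM in replicate 2 and 6.6e-05 TPM in replicate 1, and Atp5g2 had 3795 estimated counts in replicate 2 and 3920 in replicate 1. Gm10231 was listed at 0 in both tables. The sum of Atp5g2 and both copies was 4228 counts in replicate 2 and 4120 in replicate 1 in the gene table, so the tables found similar totals and divided them differently. Atp5g2 received 6.42% of this total in replicate 2 and 9.64% in replicate 1 in the gene table, and nearly all of it in the second. Which of the genes was transcribed cannot be told apart by the mm10 sequence over the shared stretches. The CAST/EiJ sequence of these genes was not compared.

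Adding the copies to their parents, an alternative chosen after seeing the data, brought the gene table near the second table for Atp5g2. For Atp5g1 the totals themselves differed between the tables. With Gm10039 it had 19567 counts in replicate 2 and 24953 in replicate 1 of the gene table. The second table gave this pair 14172 counts in replicate 2 and 18735 in replicate 1. With Gm10175 and Gm10231 added to Atp5g2, and Gm10039 (86.7 TPM in replicate 2 and 137 TPM in replicate 1) added to Atp5g1, Atp5g2 held 9.01% of c-subunit TPM in replicate 2 and 6.97% in replicate 1. Atp5g1 then held 46.2% in replicate 2 and 47.3% in replicate 1, and Atp5g3 held 44.8% in replicate 2 and 45.7% in replicate 1. Atp5g3 and Atp5g1 remained the 2 main c-subunit genes under each of these choices. Atp5g3 was the higher of them except in this sum, where Atp5g1 was.

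**Figure D3:**
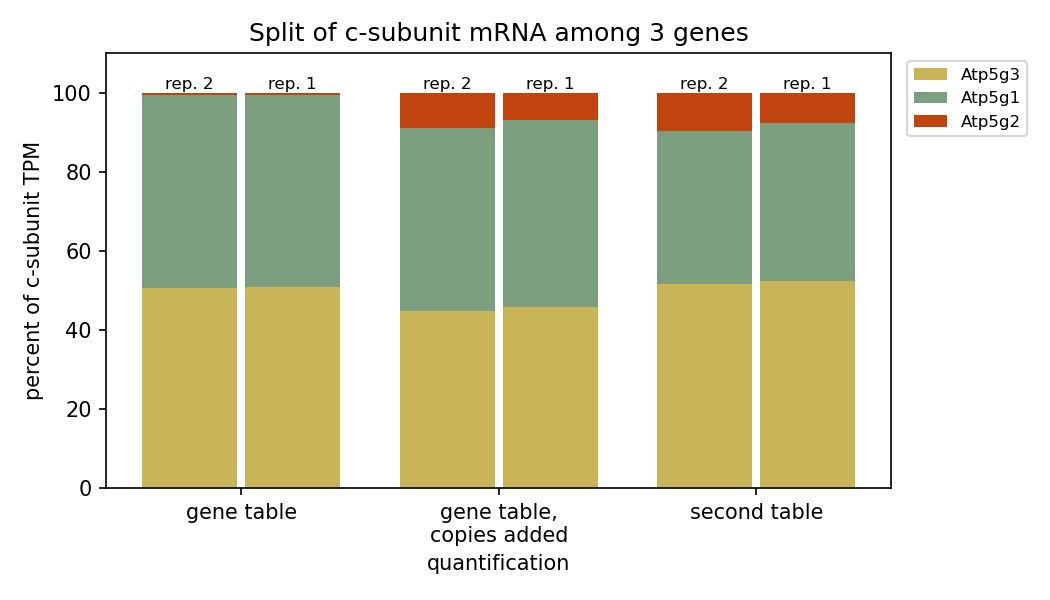
Percent of the summed c-subunit TPM held by Atp5g3 (bottom), Atp5g1 (middle) and Atp5g2 (top), replicate 2 left of replicate 1. The pairs of bars are the gene table, the gene table with the copies Gm10175, Gm10231 and Gm10039 added to their parent genes, and the second table; the Atp5g2 share is below 1% in the first pair and between 6.97% and 9.66% in the others.

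The second table gave other TPM than the gene table for some other genes too. It was at least 2-fold higher in both libraries for 3 of the 10 genes, Atp5g2, Atp5e and Atp5h, against 142 of 12183 genes averaging 1 TPM or more (1.17%). Atp5e had 1460 TPM in replicate 2 and 2001 TPM in replicate 1 in the second table, which was 2.61-fold its gene table value in replicate 2 and 2.67-fold in replicate 1. Its transcript Atp5e-201 has 421 bases, and the effective length used to scale its counts was 322 bases in the first table against 120 bases (replicate 2) and 125 bases (replicate 1) in the second. Atp5h had 1615 TPM in replicate 2 and 2164 TPM in replicate 1 in the second table. Its copy Gm10250 was assigned 2919 counts in replicate 2 and 4337 in replicate 1 of the gene table, which left Atp5h 80.4% of the joint count in replicate 2 and 78.9% in replicate 1, whereas the second table left it nearly all. Atp5h and Gm10250 together had 1012 TPM in replicate 2 and 1371 TPM in replicate 1 of the gene table. Both sums were still below Atp5h in the second table. The effective length of Atp5h-201 was 526 bases in the first table, against 302 (replicate 2) and 316 (replicate 1) in the second. The part of each in the difference was not tested. The remaining 7 genes lay within 1.49-fold between the tables.

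Each of the 10 genes had a single transcript over 50% of its TPM in the first transcript table, and that transcript was protein-coding in all 10. The leader held over 95% for 6 genes, namely Atp5a1-201, Atp5c1-201, Atp5d-201, Atp5e-201, Atp5g1-202 and Atp5g2-202. Atp5o-201 held 86.4% in both libraries, with the retained-intron transcript Atp5o-204 at 13.3% in replicate 2 and 13.0% in replicate 1. Atp5b-201 held 73.0% in replicate 2 and 68.7% in replicate 1. The rest of Atp5b lay mostly in Atp5b-206 and Atp5b-207, fragments of 478 and 343 bases annotated as non-coding, and by expected counts Atp5b-201 held a mean of 93.4%. Atp5g3-201 held 76.9% in replicate 2 and 79.5% in replicate 1, followed by Atp5g3-202.

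The tables agreed on the leading transcript for 7 of the 10 genes. They differed for Atp5g1, where Atp5g1-203 took 99.7% in both libraries in the second table, for Atp5g3, where Atp5g3-202 took 91.3% in replicate 2 and 96.2% in replicate 1, and for Atp5h. For Atp5h the first table gave Atp5h-201 76.5% in replicate 2 and 82.7% in replicate 1. The second table gave it nearly 0 in replicate 2 and 5.63% in replicate 1, and put 43.1% (replicate 2) and 50.8% (replicate 1) into Atp5h-207, a non-coding fragment of 420 bases. Atp5g3-203, Atp5h-202, Atp5h-203, Atp5h-204 and Atp5h-206 also reached 5% in a library of one of the tables, as did Atp5a1-203, Atp5d-203, Atp5e-203, Atp5o-203 and Atp5o-205. In the second table Atp5o-201 held 87.7% in replicate 2 but 56.1% in replicate 1. The shares of these transcripts therefore depended on the table, most visibly for Atp5g1, Atp5g3 and Atp5h.

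**Figure D4:**
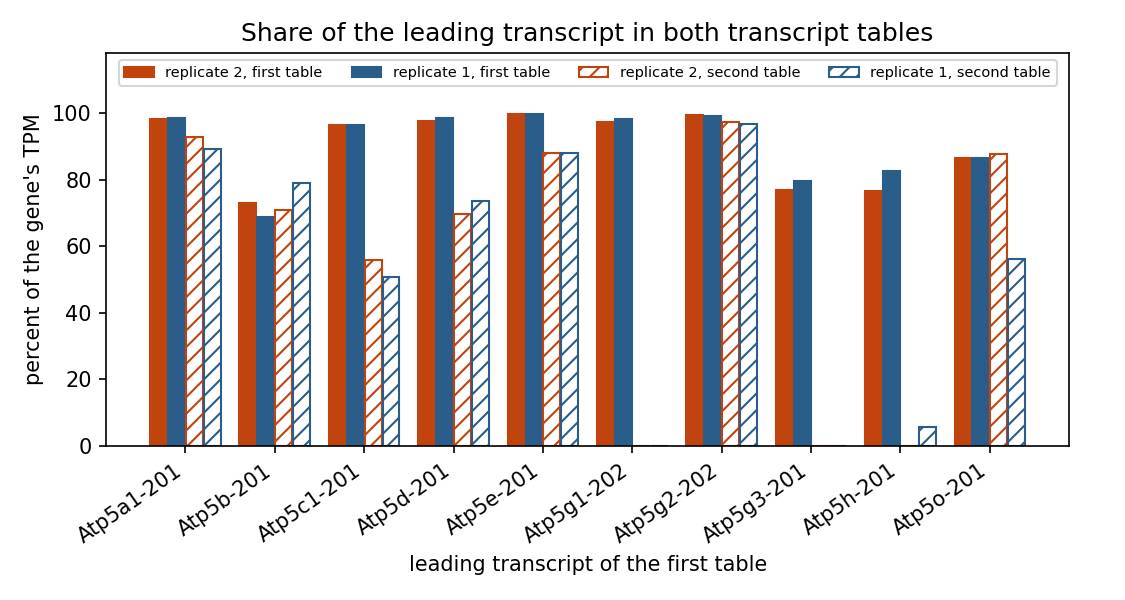
Percent of the gene's TPM held by the leading transcript of the first transcript table, for 10 genes. Solid bars are the first table and hatched bars the second, replicate 2 left of replicate 1 within each; solid bars are all above 68%, while the hatched bars of Atp5g1-202, Atp5g3-201 and Atp5h-201 are at or near 0.

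One splice choice gave like values in both tables. Atp5c1 is known from human and cattle to skip a short exon near its 3′ end in heart and skeletal muscle and to keep it in other tissues. In mm10 this exon of 37 bases lies at chr2:10056770-10056806 on the minus strand. It is present in Atp5c1-203 and Atp5c1-202 and absent from Atp5c1-201, which joins its neighbours directly. The exon is given first and the ends of the coding sequences after it, since they show what the choice changes; the stop codon is in capitals.
Atp5c1 exon: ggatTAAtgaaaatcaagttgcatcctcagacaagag
Atp5c1-201, exon skipped (within chr2:10056158-10059024): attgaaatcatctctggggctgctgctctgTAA
Atp5c1-203, exon kept (within chr2:10056800-10059021): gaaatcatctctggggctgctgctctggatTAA
With the exon the coding sequence has 298 codons, and without it 297. Of the TPM of transcripts that cover this junction, the form without the exon held 97.0% in replicate 2 and 97.1% in replicate 1 in the first table. In the second table it held 97.1% in replicate 2 and 97.8% in replicate 1. The second table also gave Atp5c1-207, which ends elsewhere and does not bear on the exon, 38.2% of the gene in replicate 2 and 45.3% in replicate 1, against 0 in the first table. Splicing of Atp5c1 in these hearts was thus almost wholly of the form that skips the exon, by either quantification.

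Most of the 10 genes were somewhat lower in replicate 2 than in replicate 1. With TMM-scaled library sizes, 9 of 10 passed an adjusted p of 0.05 as lower in replicate 2 (exact conditional binomial test on rounded counts, two-sided, Benjamini-Hochberg over 12189 genes). Of all genes tested, 15.8% were lower and 10.6% higher by the same rule, which compares these libraries and not conditions. Genes with many counts pass this rule at smaller ratios, and the share called among genes of like level was not computed. The median log2 ratio of replicate 2 over replicate 1 was -0.20 for the 10 genes and -0.019 for all genes tested. It was -0.11 for the 188 nuclear protein-coding genes averaging 300 TPM or more. None of the 10 genes changed by as much as 2-fold. The split of all calls moved with the scaling, from 1922 lower and 1289 higher to 3448 and 694 with total counts, 980 and 2843 with spike-in counts and 1300 and 1989 with nuclear protein-coding counts.

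Atp5h and Atp5e had log2 ratios of -0.30 each (95% intervals -0.33 to -0.26 and -0.35 to -0.25). Atp5g3 (-0.22), Atp5d (-0.20), Atp5g1 (-0.20), Atp5b (-0.19), Atp5a1 (-0.17) and Atp5o (-0.17) formed a narrow group. Atp5c1, the gamma subunit, stood apart with a log2 ratio of 0.022 (95% interval -0.0086 to 0.053, adjusted p = 0.328 by the same exact binomial test). It was the 1 gene that did not pass, and its call depended on the scaling: it passed as lower with total counts, and as higher with spike-in and with nuclear protein-coding counts. Atp5g2 had a log2 ratio of -0.41 (95% interval -0.64 to -0.19, adjusted p = 0.00191 by the same exact test), the largest p of the 9. Its direction turned when the copies were counted with it, at 0.17 (95% interval 0.11 to 0.24), and in the second table, at 0.13. The Atp5g2 difference between the libraries therefore depended on the division of reads among copies, while those of Atp5g1 (-0.21) and Atp5h (-0.32) held with their copies added.

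Most of the other nuclear subunits of the enzyme were also lower in replicate 2. Of 7, 6 were lower at an adjusted p of 0.05 and none was higher, against 15.8% and 10.6% of all genes tested. The median log2 ratio of the 7 was -0.17, against -0.11 for nuclear protein-coding genes averaging 300 TPM or more. With spike-in scaling 5 were lower and 1 higher. The 6 lower with TMM scaling were Atp5l (g subunit, log2 ratio -0.34), Atp5j2 (f subunit, -0.26), Atp5mpl (-0.24), Atp5k (e subunit, -0.17), Usmg5 (DAPIT, -0.16) and Atp5f1 (b subunit of the peripheral stalk, -0.14). Atp5j, coupling factor 6 of the peripheral stalk, had -0.037 and did not pass. Their mean levels lay between 411 TPM (Atp5j2) and 922 TPM (Usmg5), within the range of the 10 genes.

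In the gene table the 2 subunits encoded in mitochondrial DNA differed from the nuclear ones in level and in direction. mt-Atp6, the a subunit that forms the proton channel beside the c ring, had 25541 TPM in replicate 2 and 16184 TPM in replicate 1 (log2 ratio 0.79). mt-Atp8, a small membrane subunit whose gene overlaps mt-Atp6 by 43 bases, had 7458 TPM in replicate 2 and 5467 TPM in replicate 1 (log2 ratio 0.58). Both were higher in replicate 2, the library with the larger share of mitochondrial counts (34.4% against 29.3%); the part of that share in the result was not tested. A nuclear copy, Gm10925 on chromosome 1, shared 99.5% of the 100-base stretches of mt-Atp6 and was listed at 17971 TPM in replicate 2 and 14940.5 TPM in replicate 1. With its counts added, the log2 ratio of mt-Atp6 was 0.61. The second table listed Gm10925 at 0.036 TPM in replicate 2 and 11.4 TPM in replicate 1, and mt-Atp6 at 43123 TPM in replicate 2 and 30389 TPM in replicate 1. mt-Atp8 was listed at 0 in the second table in both libraries, so its level and direction rest on the gene table alone. The effective length of mt-Atp8-201 was 105 bases in the first table, against 40.5 (replicate 2) and 38.2 (replicate 1) in the second.

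**Figure D5:**
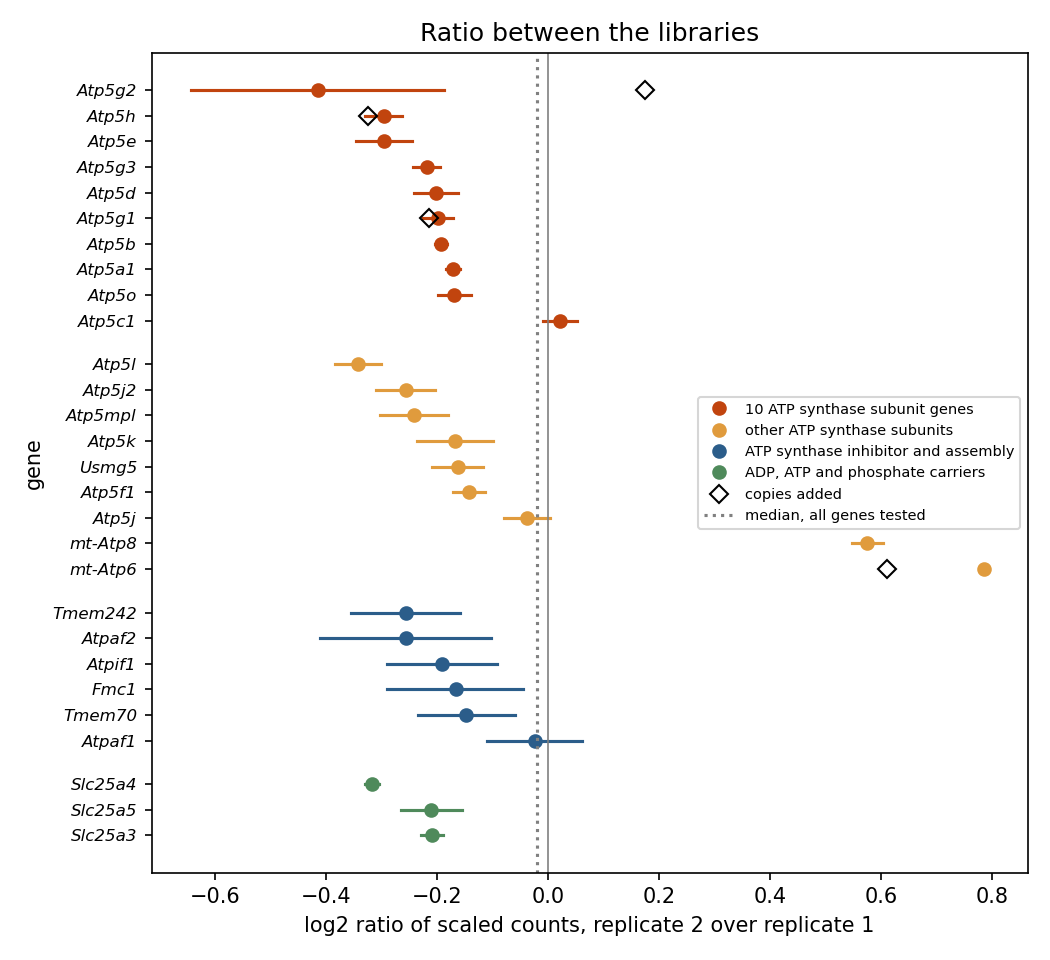
Log2 ratio of scaled counts, replicate 2 over replicate 1, with 95% intervals for counting error, for the 10 ATP synthase subunit genes and 3 related lists. Open diamonds are the ratios with nuclear copies added, and the dotted line is the median of all genes tested (-0.019); nuclear subunits lie mostly between -0.34 and -0.14, Atp5c1 and Atp5j near 0, and mt-Atp6 and mt-Atp8 at 0.79 and 0.58.

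The gene that restrains the enzyme and those that assemble it had a median of mean TPM of 56.6, against 863 for the 10 subunit genes, although Atp5g2 (17.2 TPM in the gene table) lay below 5 of these 6 genes. Atpif1, the inhibitory factor that blocks ATP hydrolysis when respiration fails, had 112 TPM in replicate 2 and 139 TPM in replicate 1. The assembly factors lay below it, from Fmc1 (mean 93.9 TPM) through Tmem242 (65.9), Atpaf1 (47.3) and Tmem70 (46.6) to Atpaf2 (16.5). Of these 6 genes 5 were called lower in replicate 2 and none higher, against 15.8% and 10.6% of all genes tested, and Atpaf1 did not pass (log2 ratio -0.024). With spike-in scaling 1 of the 6 was called lower, and with nuclear protein-coding scaling 3. The carriers that supply the enzyme were abundant. Slc25a4, the heart and muscle exchanger of ADP and ATP, had 1570 TPM in replicate 2 and 2169 TPM in replicate 1. Slc25a3, the phosphate carrier, had 931 TPM in replicate 2 and 1176 TPM in replicate 1, and Slc25a5, the exchanger of other tissues, 135 TPM in replicate 2 and 170.1 TPM in replicate 1. The germ cell exchanger Slc25a31 stood at 0.03 TPM in both libraries. All 3 carriers that were tested were called lower in replicate 2 (log2 ratios -0.32, -0.21 and -0.21), against 15.8% of all genes tested.

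Together the 10 genes held 2.71% of nuclear protein-coding TPM in replicate 2 and 2.96% in replicate 1, and all 17 nuclear ATP synthase subunits measured held 3.73% in replicate 2 and 4.07% in replicate 1. The 36 nuclear complex I subunits held 3.39% in replicate 2 and 3.52% in replicate 1, and the 22 nuclear subunits of complexes III and IV held 4.39% in replicate 2 and 4.48% in replicate 1. The median of mean TPM was 863 for the 10 genes and 673 for all 17 nuclear subunits, against 316 for complex I, 613 for complex III and 974 for complex IV. No complex I subunit reached the median of the 10 in the gene table. The highest of complex I were Ndufa3 (746 TPM) and Ndufb8 (730.0 TPM), and the lowest Ndufb4 (58.6 TPM) and Ndufb3 (135 TPM). In the second table Ndufb4 had 324 TPM in replicate 2 and 297 TPM in replicate 1. It lay above Ndufb3 there, which had 195 TPM in replicate 2 and 209 TPM in replicate 1. In cytochrome oxidase (complex IV), Cox4i1 stood at 1740.0 TPM and Cox6b1 at 1623 TPM, and the tissue-wide forms Cox6a1 and Cox8a, whose muscle counterparts are other genes, at 89.4 and 130.5 TPM. Of the complex I genes 26 of 36 were called lower in replicate 2 and none higher (median log2 ratio -0.14), against 15.8% and 10.6% of all genes tested. Of the complex III and IV genes 17 of 22 were called lower and 1 higher (median -0.12). With spike-in scaling these counts were 14 lower and 5 higher for complex I, and 9 lower and 4 higher for complexes III and IV.

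Markers of other cell types also differed between the libraries, in both directions. The 7 white adipocyte markers summed to 12.4 TPM in replicate 2 and 57.4 TPM in replicate 1, and the 6 of them tested were all lower in replicate 2. The 5 erythroid markers summed to 7045 TPM in replicate 2 and 10875 TPM in replicate 1, and all were lower in replicate 2. Of the 8 cardiomyocyte markers 6 were lower and 2 higher in replicate 2, with a median log2 ratio of -0.094. Of the 5 endothelial markers 3 were higher and 1 lower (summed 172 TPM in replicate 2 and 168 TPM in replicate 1), and of the 5 fibroblast markers 3 were higher and 2 lower (204 TPM in replicate 2 and 228 TPM in replicate 1). Of the 5 macrophage markers 4 were lower and none higher (74.4 TPM in replicate 2 and 103 TPM in replicate 1). Among skeletal muscle markers Acta1 was higher (log2 ratio 0.62), and Myh2 and Myh4 were listed at 0 in both libraries. Of all genes tested, 15.8% were called lower and 10.6% higher in replicate 2. With spike-in scaling 4 cardiomyocyte markers were lower and 4 higher, with a median log2 ratio of 0.00088. Of the endothelial markers 4 were then higher and none lower, and the calls of the other marker lists kept their numbers. The part of cell content in the lower values of the ATP synthase genes was not tested.

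The nuclear protein-coding genes nearest in level to each gene, by the summed absolute difference of log2(TPM + 1) over the 2 libraries, were named whatever their function. Atp5a1 lay nearest to Cox6b1 (summed difference 0.040), followed by the glycolytic gene Aldoa and Cox4i1. Atp5c1 lay nearest to Sdha (0.061), the flavoprotein of complex II, then to Ndrg2 and Hadha, and Atp5d to Cs (0.054), citrate synthase, then to Atp5j2 and Tuba4a. Atp5e lay nearest to Eno3 (0.040), then to Ndufa5 and Ndufb9. Atp5g1 and Atp5g3 shared Ckm, muscle creatine kinase, as their nearest gene (0.11 and 0.13) and were each other's next, followed by Ldhb for Atp5g1 and Aldoa for Atp5g3. Atp5h and Atp5o were among each other's nearest 2 genes, and both had Uqcrc1 of complex III among their 3, with Usmg5 for Atp5h and Cox5b for Atp5o. Atp5b had no close neighbour, its nearest being the globin gene Hbb-bs (0.29), then Pln and Tnnt2. Atp5g2, at its gene table level, lay beside Cd9, Timp4 and Tpst2. With only 2 libraries this measure describes levels and says nothing of shared changes.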

How the data were processed

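Total RNA-seq of heart was deposited for 2 libraries. Expected counts and TPM are as deposited by the authors in a gene table and a first transcript table. Bounds for TPM were deposited with them, at an unknown confidence level (read here as a score), and did not enclose every TPM. The second transcript table holds estimated counts and TPM as deposited, summed per gene here. The build is mm10 and the annotation GENCODE M21, per the deposited file list (no quantification tool is named in the sources used here). Effective lengths as deposited were shorter than the transcripts by 99 bases in the first table and, for long transcripts, by 323 (replicate 2) and 309 (replicate 1) bases in the second. Coordinates, coding sequences and 100-base stretches (50 as an alternative, on either strand) came from GENCODE M21.

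The genes and lists were chosen with earlier results of these data known. Entries other than annotated genes (spike-ins, phiX, bare numbers) were not used in sizes or tests, except spike-ins as a scaling. Expected counts were rounded; library sizes came from TMM (edgeR 4.0.16 in R 4.3.3) or, as alternatives, DESeq2 1.42.0, totals, spike-ins or nuclear protein-coding counts. With 2 libraries of 1 group no edgeR model could be fitted. The exact binomial test therefore compared the libraries for genes averaging 1 TPM or more, with 0.5 added in log2 ratios. It was tried on simulated counts that varied by counting error only, which the test assumes. That trial cannot show how the test behaves with further spread between libraries. The named genes were the 10, all genes of the 3 related ATP synthase and carrier lists, the 2 highest and 2 lowest of each respiratory list, transcripts leading or at 5% or more, copies sharing at least 50% of a transcript's stretches, and the 3 genes nearest in level. RefSeq proteins were not used here, so the shared end was taken from translated coding sequence.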

Additional observations from a re-analysis of the deposited data

How the results depend on the processing

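The share of nuclear protein-coding TPM and the number of genes with a transcript over 50% kept within the spread between libraries, or within 1.5 times, under the alternatives run. The count lower in replicate 2 was 9, and 8 to 10 under 7 alternatives, of which adding copies was chosen after seeing the data. Single directions turned for Atp5c1 with total counts (-0.055, then called lower), and for Atp5g2 in the second table (0.13) and with copies added (0.17); Atp5c1 passed as higher with spike-in (0.12) and nuclear protein-coding counts (0.075). The median level of 863 TPM became 1472 TPM in the second table and 2226 TPM when nuclear protein-coding TPM was set to sum to 1000000. The span per copy of 3.12-fold became 4.61-fold in the second table. The c-subunit shares of Atp5g1, Atp5g2 and Atp5g3 (48.5%, 0.614% and 50.8%) became 39.3%, 8.70% and 52.0% in the second table, 43.8%, 0.685% and 55.5% by expected counts, and 46.8%, 7.99% and 45.3% with copies added. Copies added in the second table gave 39.3%, 8.70% and 52.0%. Without replicate 1 or replicate 2 in turn, the ranges were 759.7 to 966 TPM for the median level, 3.06 to 3.18 for the span, 2.71% to 2.96% for the nuclear share, 48.4% to 48.7% for Atp5g1, 0.571% to 0.657% for Atp5g2, 50.7% to 51.0% for Atp5g3 and 10 genes throughout for the transcripts. Stretches of 50 bases raised the genes sharing at least 50% of a transcript from 2 to 3, adding Atp5h. The causes of these shifts were not tested, and RNA of 2 libraries limits every value. No paired analysis was possible because there is 1 group.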
